A study of Mus musculus with 14 samples.

Results

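The matrix metalloproteinases (MMPs), the ADAM, ADAMTS and ADAMTS-like proteins and the tissue inhibitors of metalloproteinases (TIMPs) were followed in the mouse gut muscle coat, in RNA from whole tissue and in RNA and open chromatin of single nuclei. The genes were chosen by symbol alone: every protein-coding gene whose symbol opens with Mmp, Adam, Adamts, Adamtsl or Timp followed by a number. The rule found 83 genes among the 40481 genes of the bulk count table, of which 21534 are protein coding. There were 33 Adam, 19 Adamts, 5 Adamtsl, 22 Mmp and 4 Timp genes, and all 83 were also listed among the 32285 genes of the nuclei. The samples were muscularis, the smooth muscle coat of the gut wall, separated by hand from C57BL/6 mice of 2 labelled genotypes, Carmn iKO (KO here) and WT mTmG (WT here); Carmn is a long noncoding RNA of smooth muscle. The bulk series held 12 libraries in 4 groups of 3: KO colon (labelled m1, t4 and t6), WT colon (t1, t6 and t7), KO jejunum (m1, t1 and t4) and WT jejunum (t1, t6 and t7). Nuclei came from 2 colon libraries, 1 per genotype. The labels do not say how or in which cells Carmn was deleted, at what age or after what treatment tissue was taken, or whether libraries of a group came from separate animals, so p-values here measure the spread between these libraries, which may be technical.

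MMPs are zinc-dependent proteases that cut collagens, elastin and other matrix proteins, and most are secreted as inactive precursors. ADAMs are membrane proteins, many of which shed the outer part of growth factors and receptors, while ADAMTS proteases are secreted and cut proteoglycans, process procollagens or act on fibrillin microfibrils. ADAMTS-like proteins keep the matrix-binding parts but have no protease domain, and TIMPs block the active sites of MMPs and of some ADAM and ADAMTS enzymes. In the gut wall these proteins are known for matrix turnover around muscle bundles and in wound repair and inflammation.

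A part of the Mmp family lies on mouse chromosome 9, and most of the genes there have one promoter feature. The 300 bases around the start (250 before, 50 after) were read from a RefSeq table of build GRCm38.p6, in which 52 of the 83 genes were matched. They were searched for TGANTCA, called the AP-1 motif here, which reads the same on both strands. The pattern takes in the site of Fos and Jun dimers but leaves the middle letter free. In Adam20 and Adam25 the match was TGAATCA. The motif occurred for 12 of the 52 genes (23.1%), against 8.12% of the 17492 protein-coding genes in the table. The CArG box, bound by serum response factor and known from smooth muscle genes, occurred for 0 of the 52 (1.76% of all genes), as did the palindromic cAMP response element, the site of CREB (2.54% of all genes). A match is a description of the letters and not a measured site. Of the 9 Mmp genes on chromosome 9 in the table, 7 have the AP-1 motif before a start, and Mmp8 and Mmp27 have none. The 60 bases around it are shown for the 5 with a distance of at most 63 bases, a limit set after the positions were seen, on the plus strand with the motif in capitals; in Mmp1b and Mmp20 it lies 93 and 95 bases before the start.
Mmp3 (stromelysin-1), chr9:7445750-7445809, motif 46 bases before the start: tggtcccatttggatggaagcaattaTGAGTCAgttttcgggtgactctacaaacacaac
Mmp7 (matrilysin), chr9:7692001-7692060, motif 63 bases before the start: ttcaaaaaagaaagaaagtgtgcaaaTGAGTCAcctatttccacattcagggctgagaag
Mmp10 (stromelysin-2), chr9:7502253-7502312, motif 63 bases before the start: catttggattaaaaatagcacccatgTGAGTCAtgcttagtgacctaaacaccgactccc
Mmp12 (macrophage metalloelastase), chr9:7347304-7347363, motif 44 bases before the start: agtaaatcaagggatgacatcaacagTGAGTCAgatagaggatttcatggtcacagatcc
Mmp13 (collagenase-3), chr9:7272453-7272512, motif 35 bases before the start: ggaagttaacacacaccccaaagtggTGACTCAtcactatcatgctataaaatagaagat
For Mmp12 the table also lists an earlier start, at position 7344397, and for Mmp7 a later one, at position 7692341, whose 250 bases before the start have no match. The single gene that passed the test between genotypes, Adamts1, has none of these letters in its window, which is shown for that gene and for the open chromatin described at the end (chr16:85803114-85803363, minus strand, 250 bases before the start, written 5′ to 3′).
Adamts1: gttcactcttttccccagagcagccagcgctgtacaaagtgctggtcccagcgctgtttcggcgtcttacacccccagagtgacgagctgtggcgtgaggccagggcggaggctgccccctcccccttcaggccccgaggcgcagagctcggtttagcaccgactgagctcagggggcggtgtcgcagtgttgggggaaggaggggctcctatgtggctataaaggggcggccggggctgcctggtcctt

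Bulk libraries held 24254905 to 44315104 counts, and the 83 genes took 0.228 to 0.459% of them. Carmn itself was not lower in the bulk libraries labelled KO: it stood at 304 to 718 CPM (counts scaled to 1000000 per library) in KO colon against 171 to 351 in WT colon, and at 817 to 996 in KO jejunum against 206 to 326 in WT jejunum. The labels do not say which exons were removed, and counts outside them check nothing, so directions below are those of the libraries as labelled. The 10 smooth muscle markers summed to 33700 to 45452 CPM in KO colon and 48089 to 70077 in WT colon, and to 43155 to 89964 in KO jejunum and 38810 to 42667 in WT jejunum. KO libraries were thus lower in colon and higher in jejunum without overlap, with 5 of the 10 markers below all WT libraries in colon and 3 above them in jejunum, and the part of this in the results below was not tested. The first principal component set KO colon t4 apart and the second did so for KO jejunum m1. All 5 neutrophil markers were highest of the 6 colon libraries in KO colon t4 (sum 614 CPM, against 3.72 to 6.71 in the other 5), although 4 of them (S100a8, S100a9, Cxcr2 and Retnlg) had 0 counts in at least 1 library. All 8 macrophage markers were highest in KO colon t4 within colon and in KO jejunum m1 within jejunum. Counts of genes that passed are therefore also given without these 2 libraries, a choice made after the data were seen.

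Of the 83 genes, 63 had enough counts to be tested. The 20 others were ADAM genes, most of them known from testis, and Adamts18, Mmp1b, Mmp20 and Mmp27; 6 Adam genes had no count in any library. Levels were also scaled per kilobase of all annotated exons of a gene merged, which lowers genes with many alternative exons. On this scale the inhibitors and several ADAM genes had the highest levels in WT colon: Timp2 at 144 ± 29.5 CPM per kb (SD, n = 3), Timp3 at 39.7 ± 6.54, Adam9 at 28.5 ± 3.97, Adam33 at 22.4 ± 9.19 and Adamtsl4 at 21.8 ± 6.06. In WT jejunum the order on the same scale was Timp2 at 142 ± 8.40, Timp3 at 31.8 ± 2.76, Adamtsl3 at 23.7 ± 1.94, Adam10 at 20.7 ± 2.47 and Adam9 at 18.2 ± 1.4. From the third place on, neighbours in either order overlapped between libraries. TIMP2 and TIMP3 are broad inhibitors, TIMP3 bound to the matrix, and ADAM9 and ADAM10 are sheddases, ADAM10 being a main protease of Notch receptors.

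The first question was which of these genes differed between libraries labelled KO and WT within a tissue. In colon 1 of the 63 tested genes passed (adjusted p below 0.05, edgeR quasi-likelihood test with Benjamini-Hochberg adjustment over 20886 genes), Adamts1, against 0.388% of all genes tested. At an unadjusted p below 0.05 there were 14, where 14.5% of all genes were. DESeq2 passed 5, Adamts1, Adamts4, Adamtsl2, Mmp2 and Timp1, where it passed 4.6% of all genes. In jejunum none passed the edgeR test, where 0.215% of all genes did; 17 had an unadjusted p below 0.05 (13.2% of all genes), limma voom passed 1, Adamts1 (0.417% of all genes), and DESeq2 passed 9, where it passed 3.85% of all genes: Adam19, Adamts1, Adamts19, Adamtsl2, Mmp2, Mmp19 and Mmp23 higher and Adamts17 and Mmp16 lower in KO. The median log2 fold change over the 63 genes was 0.22 in colon and 0.10 in jejunum, against 0.0043 and 0.018 over all genes tested, and 39 of 63 were above 0 in each tissue. The colon median was 0.082 without KO colon t4 (34 of 64 above 0) and 0.067 without that library and KO jejunum m1 (34 of 63), while the jejunum median was 0.10 without both.

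**Figure D1:**
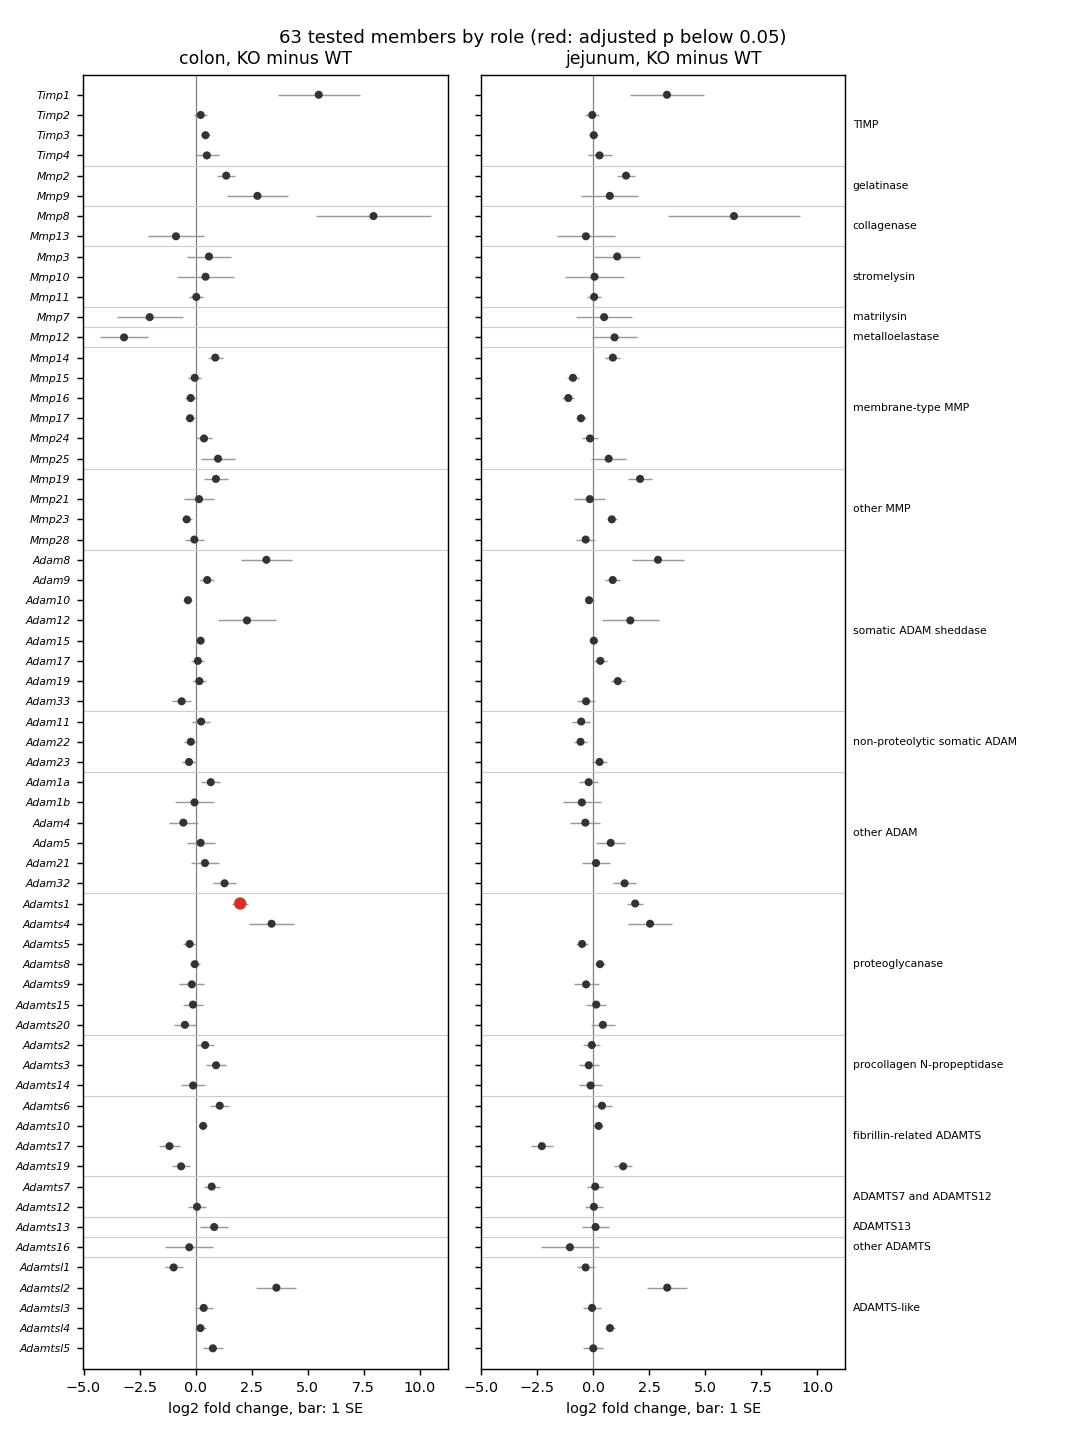
Log2 fold change of KO over WT (x axis; bars are 1 standard error) for the 63 tested genes, ordered by role, in colon (left) and jejunum (right), with 3 libraries per group. The red point, Adamts1 in colon at 1.99, is the gene with an adjusted p below 0.05; Mmp8 and Timp1 have the largest changes and the widest errors.

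Adamts1, a secreted protease that cuts the proteoglycans versican and aggrecan, was the member with the smallest adjusted p in both tissues (chromosome 16, 85793827 to 85803113, minus strand, GRCm38). In colon it stood at 126, 346 and 211 CPM in KO m1, t4 and t6 and at 60.7, 49.6 and 62.0 CPM in WT t1, t6 and t7. In jejunum it stood at 153, 81.4 and 116 CPM in KO m1, t1 and t4 and at 37.3, 36.7 and 21.7 CPM in WT t1, t6 and t7. Every KO library lay above every WT library of its tissue, with KO colon t4 the highest of the 12. On the log2 scale the change was 1.99 ± 0.36 (SE) in colon (adjusted p 0.0458, edgeR) and 1.87 ± 0.36 in jejunum (adjusted p 0.0722). The colon call was lost when any of 9 of the 12 libraries was left out (all but KO colon m1, KO jejunum m1 and KO jejunum t1) and when only the 6 colon libraries were fitted. In jejunum it passed without KO colon t4 (adjusted p 0.0241, where 0.796% of all genes passed) and without KO colon m1 (adjusted p 0.0495, edgeR, where 0.158% did), libraries that enter that contrast through the shared fit. Without KO colon t4 and KO jejunum m1 together, Adamts1 passed in both tissues, in company with Adamtsl2 in colon (1.44% of all genes passed there and 0.676% in jejunum), at 1.57 ± 0.28 in colon (adjusted p 0.0317) and 1.60 ± 0.28 in jejunum (adjusted p 0.0422, edgeR). The summed level of 8 immediate early genes (Fos, Jun and others, which respond within minutes to stimulation or tissue handling) was set beside these values. It was 691 to 1499 CPM in KO colon against 357 to 532 in WT colon, without overlap. In jejunum it was 386 to 931 CPM in KO against 197 to 409 in WT, with overlap. Within KO colon the sum and Adamts1 were both highest in t4. Within KO jejunum the sum was highest in t4 and Adamts1 in m1. Of these 8 genes, 5 lay above all WT libraries in every KO colon library, as did 8.79% of all genes tested. In jejunum 6 did so, where the share of all genes was 11%. The part of these genes in the Adamts1 difference was not tested.

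Among the other proteoglycanases the KO groups were higher without overlap in both tissues for Adamts4. Adamts4, also an aggrecan- and versican-cutting enzyme, stood at 8.81, 85.5 and 8.38 CPM in KO colon and 4.70, 1.04 and 4.10 in WT colon. It stood at 17, 4.01 and 8.44 CPM in KO jejunum and 2.32, 0.991 and 1.76 in WT jejunum. Groups did not overlap in either tissue, but KO colon t4 was far above the other KO colon libraries, and the log2 fold changes of 3.39 ± 0.99 in colon (adjusted p 0.171) and 2.54 ± 0.97 in jejunum (adjusted p 0.304, edgeR) did not pass. Without the 2 libraries that stood apart the colon value was 1.41. The Adamts4 counts are uncertain, since strand handling in counting is not given. Adamts5, Adamts8, Adamts9, Adamts15 and Adamts20 had log2 fold changes between -0.48 and -0.04 in colon and between -0.50 and 0.43 in jejunum. Over the alternatives the colon value ranged from -1.34 to 0.26 for Adamts9 and from -0.85 to 0.08 for Adamts20, and without the 2 libraries Adamts9 was at -1.33 ± 0.33 (adjusted p 0.0822, edgeR).

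Among ADAMTS-like genes, Adamtsl2 differed most. Its product binds fibrillin microfibrils and the latent TGF-beta binding protein. It stood at 11.4, 40.5 and 23.4 CPM in KO colon and 3.18, 1.48 and 1.52 in WT colon. In jejunum it stood at 41.7, 5.08 and 4.78 CPM in KO and 2.06, 2.30 and 0.852 in WT. The groups did not overlap in either tissue, and in jejunum KO m1 was far above the other KO libraries. The log2 fold changes were 3.60 ± 0.90 in colon (adjusted p 0.124) and 3.30 ± 0.89 in jejunum (adjusted p 0.161, edgeR). In colon it passed without the 2 libraries that stood apart (3.09 ± 0.50, adjusted p 0.0195) and without KO jejunum m1 alone (adjusted p 0.0162, where 0.827% of all genes passed). In jejunum its value fell to 1.48 ± 0.49 without the 2 libraries (adjusted p 0.216, edgeR), and to 1.48 without KO jejunum m1 alone. Adamtsl1 (punctin-1) went the other way in colon, 52.2, 54.6 and 50.8 CPM in KO against 102, 76.9 and 133 in WT, without overlap (-0.98 ± 0.41, adjusted p 0.298).

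Over all roles, 8 of the 63 tested genes lay higher in every KO than in every WT colon library and 2 lower, Adamtsl1 and Mmp12; the shares of all genes tested were 8.79% and 10.4%. In jejunum 13 lay higher and 6 lower (Adam22, Adamts5, Adamts17, Mmp15, Mmp16 and Mmp17), where the shares of all genes were 11% and 11.2%. Of 3 membrane-type MMPs among those 6, which sit on the cell surface, Mmp16 stood at 8.38, 11.3 and 11.3 CPM in KO jejunum and 21.2, 19.4 and 26.3 in WT jejunum (-1.11 ± 0.27, adjusted p 0.123). Mmp15 had a log2 fold change of -0.90 ± 0.28 in jejunum (adjusted p 0.202, edgeR).

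The gelatinase Mmp2 and the membrane-type Mmp14 act in a chain, since MMP14 together with TIMP2 activates the MMP2 precursor. Mmp2 stood at 69.1, 181 and 151 CPM in KO colon and 48.8, 45.7 and 61.8 in WT colon. In jejunum Mmp2 stood at 110, 45.4 and 52.7 CPM in KO and 25.7, 32.6 and 17 in WT. Neither tissue showed overlap, with log2 fold changes of 1.36 ± 0.41 (adjusted p 0.175) and 1.46 ± 0.41 (adjusted p 0.171, edgeR). Mmp14 stood at 147, 250 and 274 CPM in KO colon and 132, 62.2 and 171 in WT colon, with overlap. In jejunum it was at 134, 138 and 194 CPM in KO and 81.2, 78.7 and 94.1 in WT, without overlap. The fold changes (log2) of 0.87 ± 0.34 for colon and 0.88 ± 0.34 for jejunum did not pass (adjusted p 0.264 and 0.301).

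None of the 4 TIMP genes passed in either tissue; all 4 log2 fold changes were above 0 in colon (median 0.47) and 3 of 4 in jejunum (median 0.15). Timp1 was at 3.60, 533 and 5.22 CPM in KO colon and 2.78, 4.23 and 5.07 in WT colon. In jejunum it was at 82.4, 3.43 and 17.6 CPM in KO and 4.09, 4.20 and 2.26 in WT. A single library, KO colon t4, made the colon difference: 5.49 ± 1.84 with it (adjusted p 0.214), and 0.15 without it and KO jejunum m1. Timp2 stood at 710, 371 and 888 CPM in KO colon against 541, 459 and 686 in WT colon, and at 399, 596 and 616 in KO jejunum against 521, 586 and 555 in WT jejunum, overlapping in both (0.22 ± 0.30 in colon). Timp3 stood at 377, 408 and 530 CPM in KO colon and 332, 266 and 372 in WT colon, with no overlap by a small gap, at a log2 fold change of 0.44 ± 0.20 (adjusted p 0.331, edgeR). In jejunum Timp3 overlapped, 301, 240 and 251 CPM in KO against 260, 281 and 236 in WT. Timp4 stayed between 1.25 and 4.61 CPM in all libraries (0.50 ± 0.54 in colon). Timp3 and Timp4 lie within introns of Syn3 and Syn2 and share exon positions with them on the other strand, so reads of the 2 genes in each pair may be mixed.

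Several members known from leukocytes were high where leukocyte markers were high. Mmp8, the neutrophil collagenase, stood at 0.0434, 92.6 and 0.253 CPM in KO colon and 0.185, 0.165 and 0 in WT colon. Mmp9, the gelatinase stored in neutrophil granules and named here after its values were seen, stood at 2.45, 186 and 2.84 CPM in KO colon and 8.77, 5.66 and 13.9 in WT colon. Adam8, a sheddase of leukocytes, stood at 7.25, 173 and 5.85 CPM in KO colon and 8.34, 5.39 and 7.18 in WT colon. In each of these genes KO colon t4 was the highest library, and the other KO colon libraries lay within or below the WT range, save Mmp8 in t6, just above it. In jejunum Adam8 stood at 49.7, 19.9 and 32.5 CPM in KO and 4.49, 7.55 and 1.73 in WT, without overlap (2.89 ± 1.14, adjusted p 0.319, edgeR), and at 2.49 without KO colon t4 and KO jejunum m1 (adjusted p 0.0641). Without KO colon t4 alone Adam8 passed in jejunum (adjusted p 0.0356, edgeR). Neutrophil markers in jejunum summed to 29.7, 6.95 and 23.4 CPM in KO and 1.01 to 4.78 in WT. Only 1 of these 5 markers lay above all WT libraries in every KO library, and only 1 had counts in every bulk library. Macrophage markers in jejunum summed to 841 to 2133 CPM in KO and 206 to 724 in WT, with 7 of 8 above all WT libraries. In bulk tissue more cells of a type and more RNA per cell cannot be told apart, and the part of leukocytes in these levels was not tested.

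Mmp12, the macrophage elastase, did not follow the macrophage markers in colon. It stood at 2.21, 6.00 and 0.405 CPM in KO colon and 37.3, 9.43 and 31.3 in WT colon. In jejunum it stood at 77.5, 43.1 and 15.5 CPM in KO and 29.2, 37.9 and 3.20 in WT. Colon groups did not overlap while jejunum groups did, and macrophage markers in colon summed to 396 to 1839 CPM in KO and 609 to 764 in WT. On the log2 scale the change was -3.19 ± 1.08 in colon (adjusted p 0.218) and 0.95 ± 0.99 in jejunum (adjusted p 0.722), and the difference between tissues was -4.14 ± 1.45 (adjusted p 0.941, edgeR). Mmp12 overlaps Mmp1b on the other strand.

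Among sheddases known from most cell types, Adam10 stood at 72.6, 92.2 and 55.0 CPM in KO colon against 84.6, 110 and 84.4 in WT colon, and Adam17 (TNF-alpha converting enzyme) at 28.5, 55.5 and 20.5 against 32.0, 35.1 and 30.4. Both overlapped between genotypes. Their log2 fold changes in colon were -0.34 ± 0.20 and 0.10 ± 0.29, with adjusted p of 0.475 and 0.923 (edgeR), and the Adam17 value turned to -0.41 without KO colon t4. Adam19, the neuregulin sheddase, was at 95.9, 105 and 102 CPM in KO jejunum against 43.3, 47.6 and 51.1 in WT jejunum, without overlap (1.1 ± 0.31, adjusted p 0.166, edgeR), while its colon values overlapped.

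Adamts17, which acts on fibrillin microfibrils, was the member with the lowest log2 fold change in jejunum. It stood at 3.81, 5.80 and 2.17 CPM in KO jejunum and 15.8, 17.9 and 24 in WT jejunum (-2.29 ± 0.49, adjusted p 0.0913, edgeR). In colon it stood at 9.03, 3.5 and 5.67 CPM in KO and 12.1, 7.01 and 21.9 in WT (-1.17 ± 0.47, adjusted p 0.286). Jejunum groups did not overlap, and colon groups overlapped at a single WT library, t6.

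**Figure D2:**
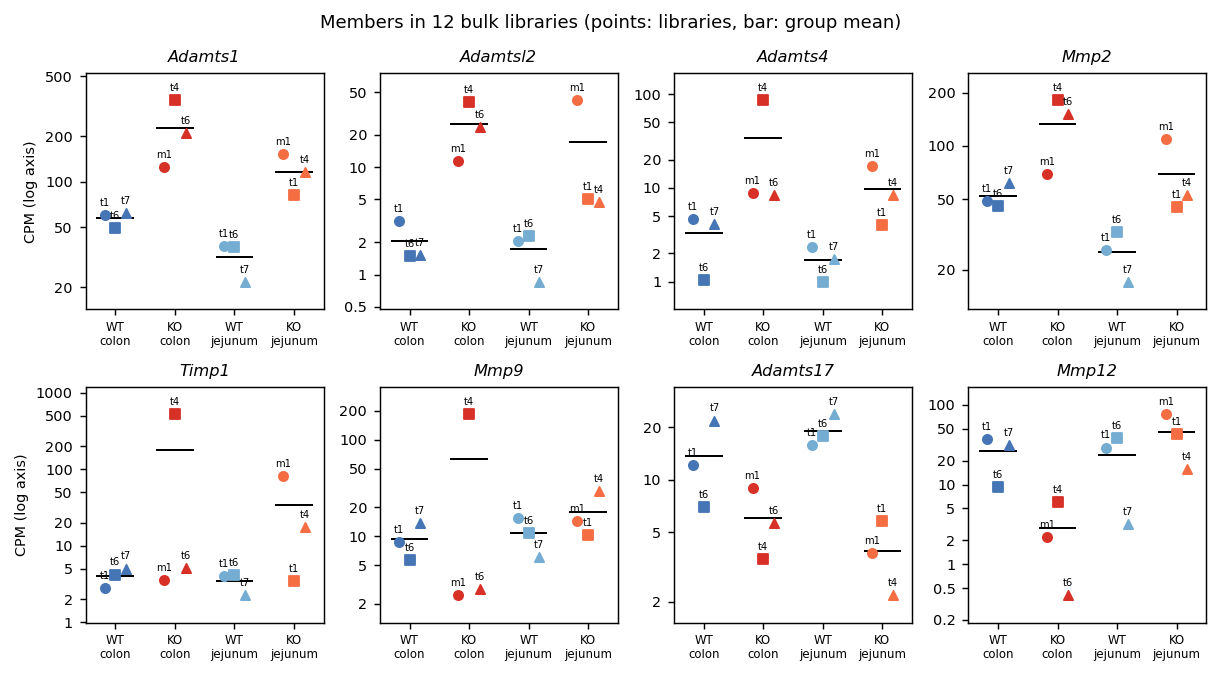
CPM of 8 genes (y axes, log scale) in each of the 12 bulk libraries by group; points are libraries with their labels and black bars are group means. Adamts1 is 81.4 to 346 CPM in the 6 KO libraries and 21.7 to 62.0 in the 6 WT libraries, while for Timp1 and Mmp9 the KO colon mean rests on t4.

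Whether the KO minus WT difference itself differed between colon and jejunum was tested as an interaction. None of the 63 genes passed, nor did any of the 20886 genes tested (0%), and 5 members had an unadjusted p below 0.05 (4.16% of all genes): Mmp12, Mmp15, Mmp16, Mmp23 and Adamts19. Without KO colon t4 there were 19 such members (9.46% of all genes), and 18 without that library and KO jejunum m1 (7.37%), none past the adjusted threshold. DESeq2 passed none of the members and 37 genes in all (0.177%). The smallest p among them was that of Mmp23 (-1.23 ± 0.32, adjusted p 0.941, edgeR).

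The next comparison was between tissues. In WT muscularis 4 of the 63 genes passed between colon and jejunum, against 1.56% of all genes tested: Adamts19, Adamts20 and Mmp23 were higher in colon and Adamtsl3 was higher in jejunum. DESeq2 passed 6, these 4 with Adamtsl4 and Mmp16, where it passed 5.55% of all genes; without KO colon t4 and KO jejunum m1 edgeR passed 7, where it passed 4.92%. Adamts19, an ADAMTS protease related to ADAMTS17 and known from heart valves, stood at 10.9, 4.59 and 12.3 CPM in WT colon and 0.884, 1.75 and 1.09 in WT jejunum (log2 fold change 2.89 ± 0.43, adjusted p 0.00909, edgeR). Adamts20, a versican-cutting enzyme known from pigment cell migration, stood at 8.96, 3.38 and 14.5 CPM against 1.66, 1.81 and 0.746 (2.67 ± 0.54, adjusted p 0.0352). The 2 tissues did not overlap for either gene. Mmp23, a small membrane-anchored MMP, stood at 25.6, 21.1 and 28.7 CPM in WT colon and 10.6, 13.7 and 7.67 in WT jejunum (1.24 ± 0.23, adjusted p 0.0242, edgeR). Adamtsl3 (punctin-2) stood at 46.7, 44.2 and 54.0 CPM in WT colon and 170, 181 and 200 in WT jejunum (-1.93 ± 0.41, adjusted p 0.0454, edgeR). Again neither overlapped, and Adamtsl3 had the narrowest spread. When libraries were left out in turn, Adamts19 lost the call without WT jejunum t1 alone, while Adamts20 and Adamtsl3 kept it in 4 of 12 fits each and Mmp23 in 7 of 12. With the replicate tag as a block in edgeR, 0 members passed between WT tissues (0.139% of all genes).

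In KO muscularis none of the 63 genes passed between tissues, against 1.29% of all genes; 18 had an unadjusted p below 0.05 (17.7% of all genes) and DESeq2 passed 7, where it passed 6.83% of all genes. The values were 5.30, 5.0 and 7.39 CPM in KO colon and 2.79, 2.56 and 4.07 in KO jejunum for Adamts19 (0.91 ± 0.40, adjusted p 0.269, edgeR). For Adamtsl3 they were 97.1, 23.5 and 65.0 in KO colon and 114, 203 and 215 in KO jejunum (-1.52 ± 0.41, adjusted p 0.0947). Without KO colon t4 alone 4 members passed, Adam22, Adamts15, Mmp9 and Mmp15 (2.84% of all genes), and without KO jejunum m1 alone 1 did, Adamtsl1 (1.7% of all genes). Without KO colon t4 and KO jejunum m1, 5 members passed, Adam22, Adamts15, Adamtsl1, Adamtsl3 and Mmp9, against 3.24% of all genes. In WT libraries 13 members lay higher in all colon than all jejunum libraries and 6 lower, where the shares of all genes were 11.2% and 11.7%. In KO libraries 8 lay higher and 4 lower, with shares of 9.93% and 9.64%.

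**Figure D3:**
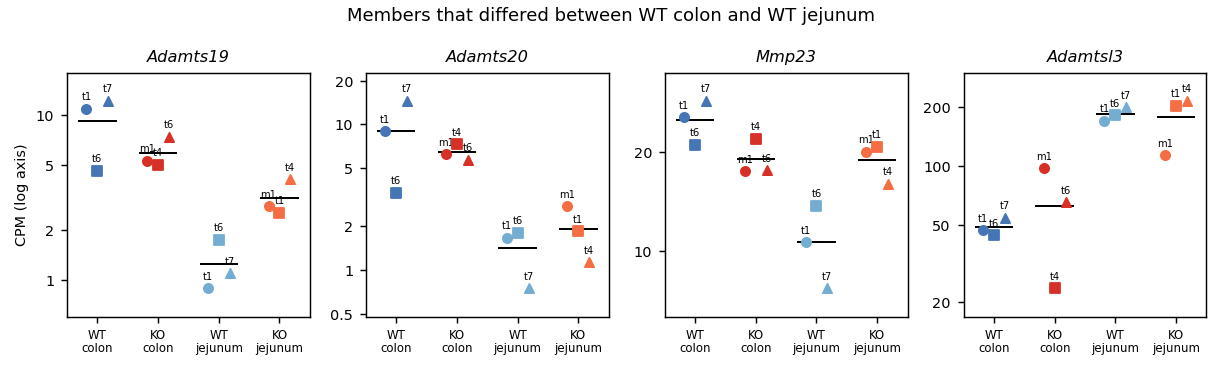
CPM (y axes, log scale) of the 4 genes that passed between WT colon and WT jejunum, in all 12 libraries; points are libraries with their labels and bars are group means. In WT, Adamts19 is 4.59 to 12.3 CPM in colon and 0.884 to 1.75 in jejunum, and the KO means of Adamts19 lie between those of the WT groups.

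Genes that activate, inhibit, clear or escort these proteases, or are cut by them, were followed as a list of 28: convertases, the plasminogen system, other inhibitors and the clearance receptor, the partners of ADAM10 and ADAM17, and proteoglycans. Of these, 26 were tested and none passed in any of the 5 contrasts. At an unadjusted p below 0.05 there were 7 in colon (14.5% of all genes there), 4 in jejunum (13.2%) and 0 for the difference (4.16%). There were 2 between WT tissues (13.1%) and 4 between KO tissues (17.7%). In the same order DESeq2 passed 3, 1, 0, 1 and 2, where it passed 4.6%, 3.85%, 0.177%, 5.55% and 6.83% of all genes. Over the tested partners the median was 0.32 (log2) for colon and 0.25 for jejunum, beside 0.0043 and 0.018 over all genes. Lrp1, the receptor that clears MMP and TIMP complexes, stood at 1726, 2292 and 2097 CPM in KO colon and 1192, 909 and 1479 in WT colon, without overlap (0.77 ± 0.24, adjusted p 0.185, edgeR). Plaur, the urokinase receptor, stood at 6.95, 122 and 11.5 CPM in KO colon and 4.85, 4.15 and 8.19 in WT colon, again highest in t4 (3.03 ± 0.92, adjusted p 0.183). Pcsk5, a convertase, stood at 79.6, 59 and 39.9 CPM in KO jejunum and 24.7, 20.4 and 31.2 in WT jejunum (1.22 ± 0.47, adjusted p 0.303, edgeR). Its values did not overlap between genotypes in jejunum.

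In the nuclei, 2612 WT and 1569 KO nuclei of colon were kept, with a median of 1690 and 1952 RNA molecules (UMIs) each; 11 barcodes occurred in both libraries. They formed 24 clusters, found without using any of the 83 genes, of which 22 were named by markers. With 1 library per genotype there is no test, intervals cover counting error only, and a difference between genotypes cannot be told apart from a difference between libraries. Of the 83 genes, 11 had no UMI and 34 had fewer than 30. Carmn over all nuclei was at 701 CPM (UMIs scaled to 1000000 over the nuclei summed) in WT and 239 in KO, the direction of the label. RNA that leaked from broken nuclei was not removed, so low levels in a class are not read as expression. Levels per gene are described across the named classes and not between genes, and elsewhere means the other named classes. The unnamed clusters were left out, among them cluster 16 (159 nuclei), in which some Cajal and smooth muscle markers were raised.

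Across classes, Adamtsl1 was highest in nuclei like the interstitial cells of Cajal, the pacemaker cells of the gut, and next in smooth muscle-like nuclei. Adamtsl1 was at 2046 CPM in Cajal-like nuclei (95% Poisson interval 1875 to 2228) and 1648 in smooth muscle-like nuclei (1604 to 1692), over both libraries. It was at 888 in mesothelial-like and 854 in lymphatic endothelial-like nuclei and at most 408 in the other named classes. Adamts19, a gene higher in WT colon than in WT jejunum, was at 400 in Cajal-like and 236 in smooth muscle-like nuclei and at most 117 elsewhere. Its smooth muscle-like level differed widely between clusters, as given below. Adam33, a sheddase known from airway smooth muscle, was at 600 in smooth muscle-like nuclei (574 to 627) and at most 236 elsewhere.

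Other members had high levels in other classes, several of them not only in the class named here. Adam23, a non-proteolytic neural ADAM that binds LGI proteins, was at 1463 CPM in enteric glia-like nuclei and at most 389 elsewhere. The related Adam22 was at 329 in neuron-like nuclei, where Mmp16 was at 340 and at 343 in glia-like nuclei. Adamtsl3 was at 735 in fibroblast-like nuclei (671 to 803) and at most 78 elsewhere, and Adamts9, a versican-cutting enzyme, was at 816 in endothelial-like nuclei. Timp3 was at 1034 in lymphatic endothelial-like and 541 in mesothelial-like nuclei. Adam19 was at 674 in T lymphocyte-like nuclei, on 43 UMIs. It was also among the 3 leading members of smooth muscle-like and B lymphocyte-like nuclei, as were Mmp16 in Cajal-like and Adam22 in macrophage-like nuclei. Timp3 was so in endothelial-like, glia-like and macrophage-like nuclei. Adam10 was detected in all 12 named classes, from 90.6 in neuron-like to 412 in endothelial-like nuclei.

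**Figure D4:**
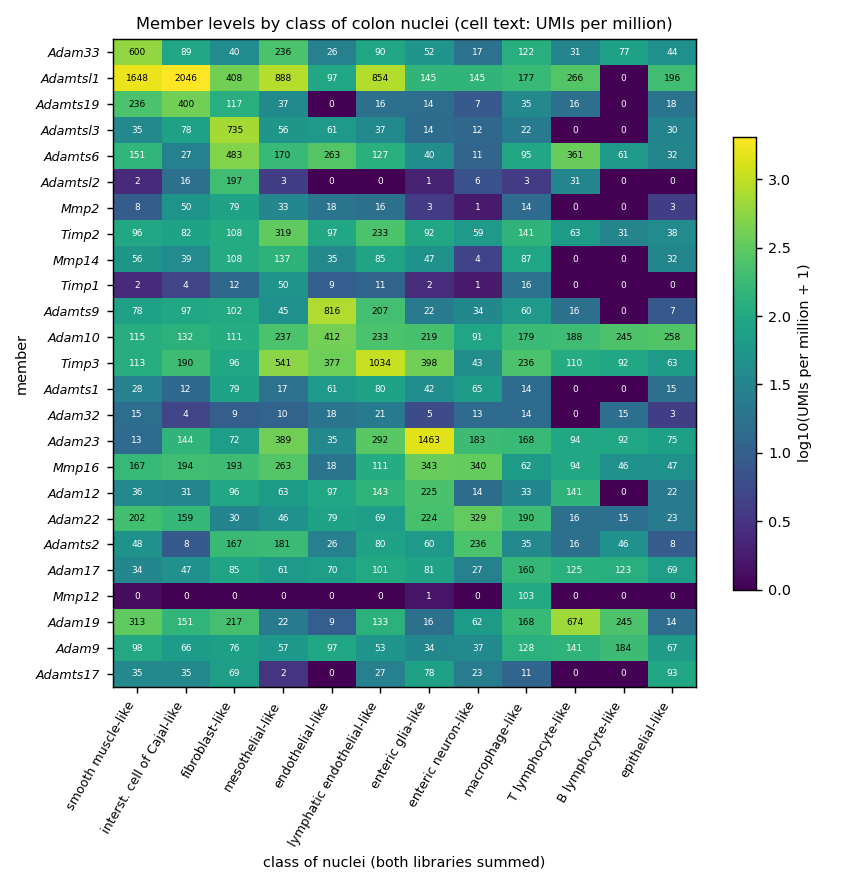
Level of 25 genes (rows) in 12 named classes of colon nuclei (columns), both libraries summed; the text in each cell is CPM and the colour is log10 of that value plus 1. Adamtsl1 fills the Cajal-like (2046) and smooth muscle-like (1648) columns, Adam23 the glia-like (1463) column and Mmp12 the macrophage-like (103) column.

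The members that stood out in bulk had few UMIs in nuclei, and their levels were set beside the bulk values for colon. Adamts1 had 108 UMIs in WT and 289 in KO nuclei, 16.7 and 58.7 CPM, a ratio of 3.51 (2.81 to 4.43). Its level was 20.2 in WT and 114 in KO in fibroblast-like nuclei, 19.5 and 92.8 in glia-like nuclei and 48.8 and 88.3 in neuron-like nuclei. The KO value was the higher in each of these 3 classes.

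Adamtsl2 had 10 UMIs in WT and 148 in KO nuclei, of which 127 lay in KO fibroblast-like nuclei (301 CPM, 251 to 358, against 20.2, 6.59 to 47.1, in WT). Within that class WT nuclei lay mostly in cluster 12 and KO nuclei in cluster 13; Adamtsl2 was at 6.34 in WT and 384 in KO in cluster 12, and at 44.5 and 234 in cluster 13. Mmp2 had 30 UMIs in WT and 134 in KO nuclei, 4.64 and 27.2 CPM; in mesothelial-like nuclei, the lining of the outer gut surface, it had 0 UMIs in WT and 45 in KO (57.2 CPM). Mmp14 was at 41.1 CPM in WT and 86.0 in KO nuclei. All these KO levels lay above those in WT.

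Timp1 had 15 UMIs in WT and 87 in KO nuclei, 58 of them in KO mesothelial-like nuclei (73.7 CPM, against 17.5 in WT). Timp3 in mesothelial-like nuclei was at 119 in WT and 848 in KO, higher in KO in both mesothelial-like clusters (93.8 and 441 in cluster 10, 269 and 1421 in cluster 11). Mmp12, named for macrophages, had 36 of its 37 WT UMIs in macrophage-like nuclei, at 436 CPM (306 to 604), and 2 UMIs in KO macrophage-like nuclei, at 7.0 (0.848 to 25.3). There were 49 macrophage-like nuclei in WT and 145 in KO. Mmp8 and Mmp9 had 1 UMI each, both in KO nuclei. No cluster was named neutrophil-like.

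Smooth muscle-like nuclei formed 4 clusters, and these were compared by number because of their leading genes. Those of cluster 2 include a pericyte marker (Abcc9) and none of its own list, and clusters 0 and 23 also have none of it. In cluster 23, 6 of the 10 smooth muscle markers were raised, the smallest share that gives a name. Clusters 0 (408 WT and 84 KO nuclei), 1 (162 and 80) and 2 (184 and 166) came from both libraries. Cluster 23 held 66 KO nuclei and no WT nucleus, so it may be a feature of that library. In cluster 0, 3 of the 23 members with at least 30 UMIs were at least 2-fold higher in KO and 3 at least 2-fold lower, where 4.44% and 7.45% of all 5970 such genes were. In cluster 1 these were 0 and 2 of 8 members (3.37% and 6.16% of all genes), and in cluster 2 they were 5 and 4 of 25 (6.47% and 5.77%).

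Adamtsl1 was lower in KO in each of the 3 shared clusters: 1847 CPM in WT and 343 in KO in cluster 0, 1171 and 227 in cluster 1, and 2193 and 970 in cluster 2. In cluster 23 it was at 2887 (2722 to 3060). Adamts19 was at 52.3 in WT and 17 in KO in cluster 0, on 68 and 5 UMIs, at 33.6 and 32.4 in cluster 1, on 6 and 3 UMIs, at 446 and 166 in cluster 2, and at 1005 (908 to 1109) in cluster 23. Adamtsl1 and Adamts19 were thus lower in KO in cluster 2 and highest in the KO cluster with no WT nuclei. Adamts19 was low in clusters 0 and 1, so its level over smooth muscle-like nuclei came mostly from clusters 2 and 23.

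Adam33 was at 723 in WT and 537 in KO in cluster 0, 1082 and 583 in cluster 1, 538 and 463 in cluster 2, and 304 in cluster 23. Adamts17 was at 65.3 in WT and 10.2 in KO in cluster 0, on 85 and 3 UMIs, with a ratio of 0.16 (0.03 to 0.47), and had no UMI in cluster 23. These nuclei came from colon. Bulk Adamts17 was the lowest fold change in jejunum, while its colon values overlapped between genotypes, and it passed in neither tissue, as given above. Carmn was lower in KO in each shared cluster, at 1803 and 758 in cluster 0, 1418 and 529 in cluster 1 and 1684 and 671 in cluster 2.

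Other members were higher in KO. Adam9 was at 43.8 in WT and 132 in KO in cluster 0 (ratio 3.02, 1.96 to 4.62) and at 77.5 and 198 in cluster 2 (2.56, 1.74 to 3.82). Adamts20 was at 14.6 and 109 in cluster 0 (7.44, 4.09 to 13.9) and had 0 UMIs in WT and 33 in KO in cluster 2. Bulk Adamts20 in colon went the other way, with a negative log2 fold change that did not pass, as given above. Adam12, an ADAM that cuts insulin-like growth factor binding proteins, was at 4.31 in WT (2 UMIs) and 63.2 in KO in cluster 2 (ratio 14.7, 3.78 to 126) and at 202 (160 to 251) in cluster 23. Adamts1 was at 4.61 and 23.8 in cluster 0 and at 32.3 and 32.4 in cluster 2. Cluster 0 held fewer than 30 Adamts1 UMIs over both libraries, so its higher KO value rests on few molecules. Over all smooth muscle-like nuclei the Adamts1 ratio was 4.88 (2.97 to 8.36), and 3.24 (1.82 to 5.87) without cluster 23. Over the same nuclei, cluster 23 included, the ratio was 0.57 (0.48 to 0.67) for Adam22 and 0.53 (0.25 to 1.07) for Adam23. These class ratios are given as values only, since the share of nuclei in each cluster differed between the libraries. Adam32, a family member known from testis, had 1 UMI in WT and 13 in KO in cluster 2, and 22 in cluster 23.

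**Figure D5:**
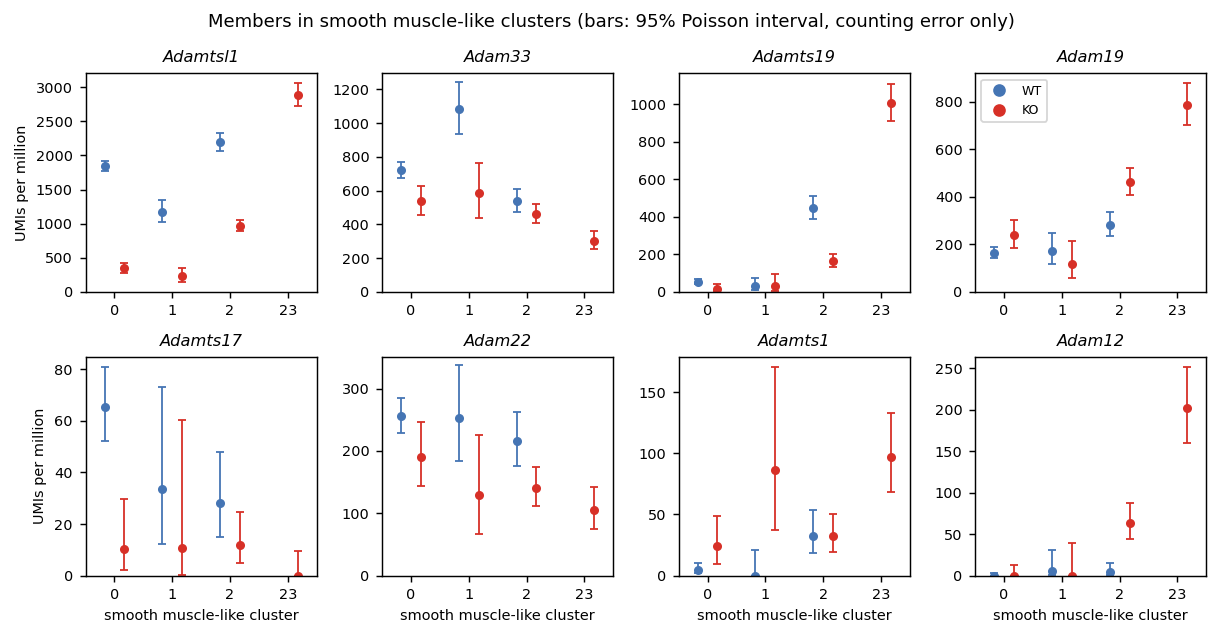
CPM of 8 genes (y axes) in the 4 smooth muscle-like clusters (x axis) for WT (blue) and KO (red) nuclei, with 95% Poisson intervals that cover counting error only. Cluster 23 has no WT point; Adamtsl1 is at 1847 in WT and 343 in KO in cluster 0 and at 2887 in cluster 23.

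The same nuclei gave regions of open chromatin, called separately in each library (35003 in WT and 26493 in KO, with 2999075 and 1854201 counts in them). A called region lay over the 300-base promoter for 18 of the 52 matched genes in WT (34.6%), against 51.4% of all genes, and for 10 in KO (19.2%), against 44.1%. Within 1000 bases of the start the shares were 40.4% in WT, against 53.9% of all genes, and 19.2% in KO, against 46.3%. Promoters open in both libraries were those of Adam10, Adam17, Adam22, Adam23, Adamts3, Adamts17, Mmp28, Timp2 and Timp3. In WT alone there were 9, including Adamts1, Adamtsl2 and Adamtsl3, and in KO alone there was 1, Timp1. The Adamts1 promoter printed above thus had a called region in WT and none in KO, while its UMIs were higher in KO. The 5 Mmp promoters printed above had none in either library. The KO library had fewer counts in regions, and the part of depth in these calls was not tested.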

How the data were processed

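The bulk values were raw counts per Ensembl gene as deposited, and per the submitters' processing notes the tools included STAR 2.0.4b, Subread, featureCounts 1.4.5, edgeR and Cell Ranger, with builds GRCm38 and mm10 and no roles stated. Strand handling in counting is not stated there. Rows that repeated a gene identifier (276 of 40757, same values) were dropped. Genes passing edgeR's expression filter on the 4 groups (20886) were scaled with TMM and fitted in edgeR 4.0.16 (R 4.3.3; robust quasi-likelihood, 1 mean per group, all 12 libraries), with Benjamini-Hochberg adjustment over all of them. CPM are counts scaled to 1000000 per TMM-adjusted library; SE is the log2 fold change over the square root of F. An exact permutation test of 3 against 3 could not go below 0.1. Data were simulated with the gene means and spread of all 12 libraries, and changes were placed in KO colon. For KO minus WT in colon the fit recovered 58% of genes changed by a log2 fold of 2 and 6% of those changed by 1 (20504 genes). The spread of the colon libraries alone was not simulated. Same-group libraries differed by more than counting noise, so none was counted as the same library deposited again; this does not show that they came from separate animals.

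The nuclei files are counts deposited by the authors and made, per the file headers, with cellranger-arc-2.0.0. All gene values in them were even and were divided by 2, an inference from the values. Nuclei with 500 to 20000 UMIs, at least 200 genes and under 5% mitochondrial UMIs were kept and clustered in scanpy 1.11.5 (2000 variable genes, 30 components, resolution 1). A cluster was named where at least 60% of a marker list was raised, and not where mitochondrial genes led it. Doublets were called with Scrublet (0.191% of WT nuclei, where the caller did not work, and 8.41% of KO nuclei) and kept.

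Replicate tags such as t6 are shared between tissues, and whether they mark the same animal is not stated. The main fit did not pair libraries by tag. The named genes are members past the threshold, the 4 highest and 4 lowest fold changes per tissue at an average log2 CPM of at least 0, fixed genes (Timp1 to Timp4, Mmp2, Mmp14, Adam10, Adam17, Adamts1), the 5 highest levels per kb in each WT tissue, the 3 leading members of each class of nuclei and of the smooth muscle ratios, and 2 partners per tissue (1 item is not reported here); others were chosen after their values were seen. The members and all lists were chosen with earlier results of these data known. Protein sequences were not analysed here. Alternatives were other scalings, filters, tests, library sets, nuclei thresholds and promoter windows.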

Additional observations from a re-analysis of the deposited data

How the results depend on the processing

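The number of genes that passed moved with the test and with single libraries. In colon, 1 member passed in the edgeR fit, 5 with DESeq2, 0 when the 6 colon libraries were fitted alone, 0 to 2 when 1 library was left out in turn, and 2 without KO colon t4 and KO jejunum m1 together, a choice made after the data were seen. In jejunum 0 passed, against 9 with DESeq2, 1 with limma voom, 0 to 2 with 1 library left out and 1 without those 2 libraries. Between WT tissues 4 passed, against 2 with limma voom, 9 when the 6 WT libraries were fitted alone, 0 to 5 with 1 library left out and 7 without the 2 libraries. Between KO tissues 0 passed, against 1 (Timp3) with total counts as the scaling, 7 with DESeq2, 0 to 4 with 1 library left out and 5 without the 2 libraries. The difference between tissues had 0 members in every fit. Of the partner genes 0 passed in edgeR; DESeq2 passed 3 in colon, 1 in jejunum, 1 between WT tissues and 2 between KO tissues. The 6 WT libraries alone gave 1 partner between WT tissues, leaving out 1 library gave 0 to 1 between WT and 0 to 1 between KO tissues (the 1 without KO colon t4), and leaving out the 2 libraries gave 2 and 1.

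Same-tag correlations of deviations were 0.1, -0.008 and 0.061 in WT and -0.163 and -0.095 in KO, and not every library correlated best with its own tag. With 3 libraries per group these values cannot show whether a shared tag is the same animal. With the replicate block in edgeR 0 members passed between WT tissues, and 29 genes in all (3 between KO tissues). With the replicate block as a random effect in limma voom 1 member passed in jejunum and 2 between WT tissues.

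Over all genes, 81 passed in colon, 45 in jejunum, 325 between WT and 270 between KO tissues. DESeq2 passed 960, 805, 1160 and 1427; the contrast's own 6 libraries gave 0, 21, 904 and 4; leaving out 1 library gave 7 to 180, 2 to 172, 79 to 557 and 40 to 613; leaving out the 2 libraries gave 309, 145, 1056 and 694. In jejunum total counts gave 26, limma voom 87 and its random block 76. Total counts moved the split of higher against lower genes from 145 and 180 to 158 and 111 between WT tissues and from 96 and 174 to 93 and 90 between KO tissues, where the median log2 fold change of all genes became 0.14.

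Of 859 values of 41 named bulk fold changes under alternatives, 785 kept direction and side of the threshold, 17 gained and 42 lost the call, and 15 changed sign, none of these past the threshold. With 1 library left out, Timp2 ranged from -0.037 to 0.51 in colon and from -0.16 to 0.10 in jejunum, Timp3 from -0.11 to 0.080, Timp4 from -0.089 to 0.55 and Adamtsl3 from -0.22 to 0.16 in jejunum, and Adam17 from -0.41 to 0.40 in colon. Without the 2 libraries Timp2 was at 0.10, Timp3 at -0.11 and Adamtsl3 at 0.16 in jejunum and Adam17 at -0.39 in colon. Timp3 in jejunum was at -0.041 with total counts, and Adam17 in colon at -0.049 with limma voom and -0.040 with its random replicate block. The cause was not tested.

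In WT smooth muscle-like nuclei the 83 genes summed to 4497 CPM, and to 4638 after thinning to 1000 UMIs per nucleus. In KO ones they summed to 4572, to 4435 after thinning and to 3592 without cluster 23. These sums are set against the settings and not between genotypes, since cluster 2 keeps the class from being compared. Open regions within 1000 bases of the start were found for 40.4% of members in WT (53.9% of all genes) and 19.2% in KO (46.3%). Depth limits the nuclei, where 34 members had fewer than 30 UMIs.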
